A study of Mus musculus with 10 samples.

Results

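The receptors described here are 35 mouse G protein-coupled receptors for noradrenaline and adrenaline (7 genes), serotonin (11), dopamine (5), histamine (3), acetylcholine (5), adenosine (3) and endocannabinoids (1, Cnr1). They were taken by symbol from a fixed list, and each of the 35 symbols matched 1 of the 25006 Ensembl gene identifiers counted in every library. The libraries came from 10 cells of the solitary nucleus, the brainstem station for sensory input from the gut and other viscera, and comprised 5 neurons labelled with a type 2 firing property (named 6-2, 9-2, 9-4, 10-1 and 10-3) and 5 labelled with a type 1 firing property (1-1, 1-2, 4-3, 8-2 and 9-1). All 10 came from C57BL/6 mice aged 3 months that carried LepRb-Cre and Halo-eYFP, so that cells that express or once expressed the long leptin receptor were fluorescent, and the cytoplasm and nucleus of each neuron were drawn into a glass pipette from a brainstem slice 285 µm thick after 50 min of incubation. The labels do not define the 2 firing properties, do not explain the neuron numbers and name no animal. Each type therefore stands as 1 sample with 5 cells, no test was possible, and every SD below is a spread between cells.

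Receptors of this class pass a signal from a diffusely released transmitter to heterotrimeric G proteins inside the cell. Those that couple to Gi/o lower cyclic AMP, open inwardly rectifying potassium channels and close calcium channels, those that couple to Gq activate phospholipase C and usually depolarise neurons, and those that couple to Gs raise cyclic AMP. The solitary nucleus receives noradrenergic, serotonergic and cholinergic fibres, and these transmitters modulate feeding, nausea, blood pressure and breathing there.

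Libraries held 12195253 to 41608996 counts in type 2 neurons and 9796799 to 41844825 in type 1 neurons, and 4 type 2 and 2 type 1 libraries exceeded 20000000 counts. A receptor was called detected in a neuron at 10 CPM (counts per 1000000 counts of the library) or more with at least 3 counts, and by the same criterion 24% to 29.5% of all genes were detected in type 2 neurons and 21.3% to 28.3% in type 1 neurons. Of 8 general neuronal markers, 6 to 8 were detected in each type 2 neuron and 7 to 8 in each type 1 neuron. Lepr itself was detected in 4 type 2 and 2 type 1 neurons. Gcg, which encodes proglucagon, ranged from 3556 to 17680 CPM in type 2 and from 0 to 14.1 CPM in type 1 neurons, and Gal, which encodes galanin, from 0 to 149 CPM in type 2 and from 1859 to 5124 CPM in type 1. Of 14 microglial markers, 13, 7 and 13 were detected in the type 2 neurons 6-2, 9-2 and 9-4, 0 in 10-1, 1 in 10-3, and 0 to 6 in the type 1 neurons. Their summed level was 4.3 to 1889 CPM in type 2 and 0.0668 to 877 CPM in type 1 neurons, and no marker of the list was at 0 in all neurons. The defining marker P2ry12 was at 0 outside neuron 6-2, and Cx3cr1 and Aif1 were at 0 in neuron 9-2. Of 12 astrocyte markers, 1 to 5 were detected per type 2 neuron (summed level 1045 to 1775 CPM) and 1 to 3 per type 1 neuron (150 to 673 CPM), to which Aldoc contributed most on average in each type, while Slc1a3 and Gjb6 were at 0 in all 10. Of 13 oligodendrocyte lineage markers, 1 to 3 were detected per type 2 neuron (39.2 to 220 CPM) and 0 to 3 per type 1 neuron (2.14 to 1047 CPM), with Olig2 and Sox10 at 0 throughout. Of 12 vascular and blood cell markers, 0 or 1 was detected in each neuron of either type (0.608 to 10.7 CPM in type 2 and 2.87 to 27.6 CPM in type 1), and 6 were at 0 throughout.

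Few of these receptors were detected in any one neuron, and the serotonin receptor Htr1f and the muscarinic receptor Chrm2 had the widest gaps between the types. Type 2 neurons held 4.2 ± 1.30 detected receptors each and type 1 neurons 5.2 ± 1.64 (SD between cells, n = 5 each), with ranges of 3 to 6 and 3 to 7 that overlapped. Of the 35, 17 were detected in at least 1 neuron, a share close to the 47.1% of all 25006 genes that reached the same level in at least 1 neuron. In type 2 neurons 9 receptors were detected and in type 1 neurons 14. The neurons of each type shared 6 of these, Adra2c, Htr1d and Hrh1 were detected in type 2 neurons alone, and Adrb1, Htr1a, Htr1f, Htr7, Drd1, Drd2, Chrm5 and Adora1 in type 1 neurons alone. These were 17.6% and 47.1% of the detected receptors, against 12.9% of all detected genes in type 2 alone and 11.5% in type 1 alone, and a receptor detected in 1 neuron, as were 1 of the 3 and 6 of the 8, falls in one type by necessity. With 5 neurons a type, 0 of 5 leaves an exact (Clopper-Pearson) binomial 95% interval of 0% to 52.2% of neurons, so absence from a type was not shown for any of them. That interval, like the other binomial intervals given here, treats the 5 neurons as independent draws, although each type is 1 sample. The Poisson intervals given below cover the counting of reads only and leave out the spread between cells.

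No 2 of the 10 neurons had the same set of detected receptors. Among type 2 neurons, 6-2 held Hrh1, Chrm2 and Cnr1, and 10-3 held Htr1d, Hrh3 and Chrm2. Neuron 10-1 held Adra2c, Hrh3, Chrm2 and Cnr1, and 9-2 held Adra2a, Adra2c, Htr2c, Hrh1 and Chrm2. The richest type 2 neuron, 9-4, held Adra1a, Adra2a, Htr2c, Hrh3, Chrm2 and Cnr1. Among type 1 neurons, 1-2 held Adra1a, Htr1f and Cnr1, and 4-3 held Adra1a, Htr1f, Drd1 and Drd2. Neuron 1-1 held Htr1f, Htr2c, Hrh3, Chrm2, Chrm5 and Cnr1, and 9-1 held Adra1a, Adrb1, Htr1f, Drd2, Chrm2 and Cnr1. The richest of all, 8-2, held Adra1a, Adra2a, Htr1a, Htr1f, Htr7, Hrh3 and Adora1. Chrm2 thus recurred through type 2 and Htr1f through type 1, around a remainder that differed from cell to cell. A pair of neurons shared a median of 2.0 receptors within type 2 (10 pairs, 1 to 3 shared), 2.0 within type 1 (10 pairs, 1 to 3) and 1.0 between the types (25 pairs, 0 to 4).

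**Figure D1:**
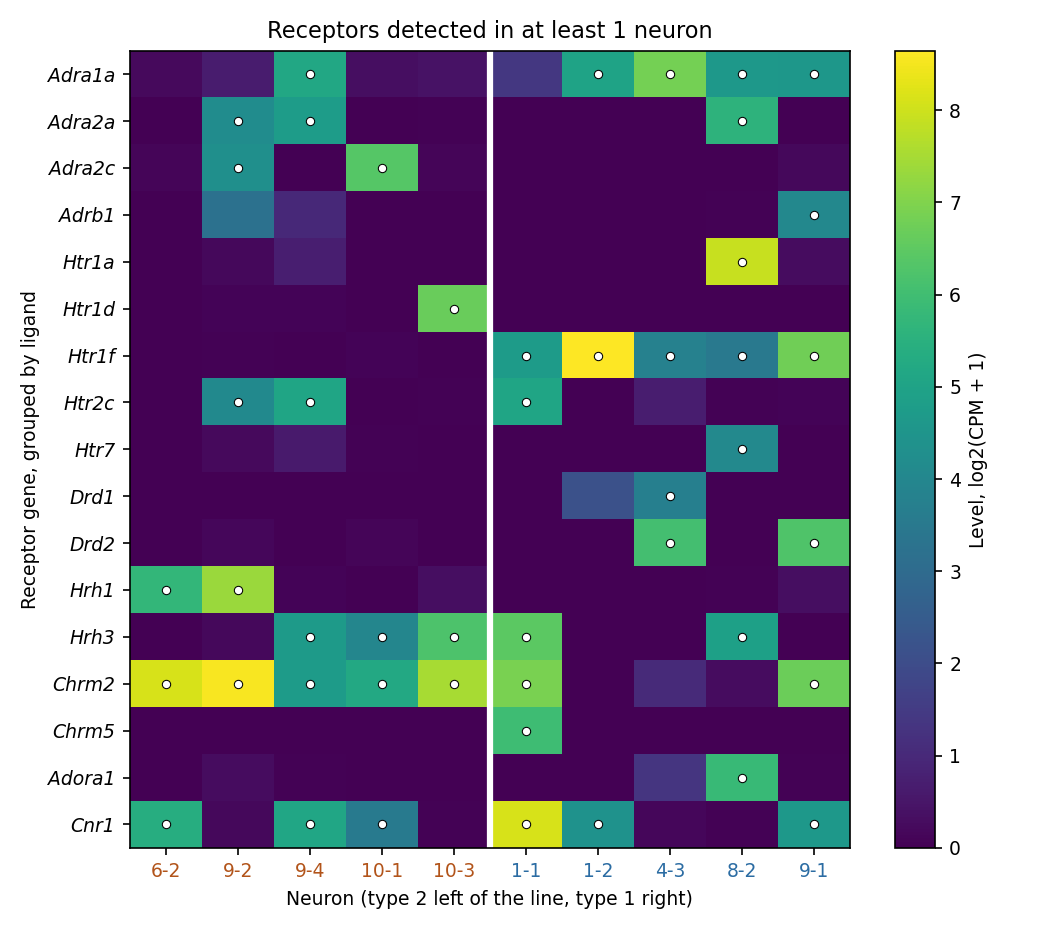
Level of each of the 17 receptors detected in at least 1 neuron (rows, by ligand) in each of the 10 neurons (columns, type 2 on the left and type 1 on the right), as log2(CPM + 1), with a white dot where the level was 10 CPM or more. The Chrm2 row is dotted in 5 of 5 type 2 and 2 of 5 type 1 neurons, and the Htr1f row in 0 of 5 type 2 and 5 of 5 type 1 neurons.

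The levels were mostly either 0 or well above the detection limit. Of 350 receptor values, 248 were 0, 47 lay above 0 and under 1 CPM, 8 from 1 to under 10 CPM, and 47 at 10 CPM or more. The highest values under the limit were Adrb1 in neuron 9-2 at 8.45 CPM, the only one from 5 to under 10 CPM, Drd1 in 1-2 at 3.39 CPM and Htr5a in 9-1 at 3.35 CPM. Just over it were Htr1f in 8-2 at 10.3 CPM, Cnr1 in 10-1 at 10.8 CPM and Drd1 in 4-3 at 12.2 CPM. Detected values had a median of 35.3 CPM and reached 399 CPM, and 35 of the 47 lay below the median of all genes detected in the same neuron, which was 67.8 to 95.6 CPM in type 2 and 74.6 to 108 CPM in type 1 neurons.

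The promoters of the receptors with the largest difference in each direction, Chrm2 (higher in type 2) and Htr1f (lower in type 2), are shown to place those genes in the genome. The windows searched were the 250 bases before the RefSeq transcription start on GRCm38.p6, at chr6:36387834-36388083 on the plus strand for Chrm2 and chr16:65105785-65106034 on the minus strand for Htr1f. The last 70 bases of the Htr1f window lie inside the gene as GENCODE M21 draws it and are left out, so that its line holds 180 bases (chr16:65105855-65106034). Each line runs 5′ to 3′ on the gene's own strand. Capitals mark matches to 6 motifs searched on either strand, namely TATAAA (the TATA box), GGGCGG (the GC box), CCAAT, TGACGTCA and the TGACG within it (the cyclic AMP response element and its core) and CACGTG (the E-box).
Chrm2: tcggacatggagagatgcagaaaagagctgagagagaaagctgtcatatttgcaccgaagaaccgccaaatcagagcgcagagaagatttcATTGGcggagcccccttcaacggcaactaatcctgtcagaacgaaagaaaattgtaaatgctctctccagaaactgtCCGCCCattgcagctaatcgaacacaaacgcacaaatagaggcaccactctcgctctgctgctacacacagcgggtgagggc
Htr1f: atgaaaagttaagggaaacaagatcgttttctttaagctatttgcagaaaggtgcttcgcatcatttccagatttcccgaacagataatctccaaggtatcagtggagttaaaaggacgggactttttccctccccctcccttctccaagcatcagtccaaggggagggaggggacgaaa
The Chrm2 window held 1 GC box, 82 bases before the start, and 1 CCAAT match, 159 bases before it, each on the opposite strand. The Htr1f window held none of the 6, which says only that these letters are not in these 250 bases. Among 32851 promoter windows of the same length, 32.7% held GGGCGG, 33.8% CCAAT, 12.4% TATAAA, 1.55% TGACGTCA, 17.8% TGACG and 6.02% CACGTG. G and C made up 50% of the Chrm2 window and 49.2% of the Htr1f window, against a median of 52.4% over all windows.

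Differences between the types are given as the type 2 mean minus the type 1 mean of log2(CPM + 1), for the 17 receptors with a mean of at least 1 CPM over the 10 neurons. These were 8 with a higher and 9 with a lower mean in type 2, where 56.2% of all genes were higher, with a median difference of -0.61 against 0.24 over all 11923 genes at that level. A difference of 2 or more, 4-fold on this scale, was found for 3 receptors, Chrm2, Hrh1 and Adra2c, beside 13.5% of all genes. A difference of -2 or less was found for 3, Htr1f, Adra1a and Drd2, beside 7.78% of all genes. Of the 17, only Htr1f had ranges that did not overlap between the types. Every type 1 neuron lay above every type 2 neuron for Htr1f and for 0.587% of all genes, and the opposite order was found for 1.44% of all genes and 0 receptors. By the median over neurons in place of the mean, Hrh1, Adra2c and Drd2, each high in 2 neurons of a type, had differences of 0.32, 0.11 and 0.00. Without neuron 9-2, whose Hrh1 and Adra2c levels were 163 and 18.6 CPM, the first count was 1.

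**Figure D2:**
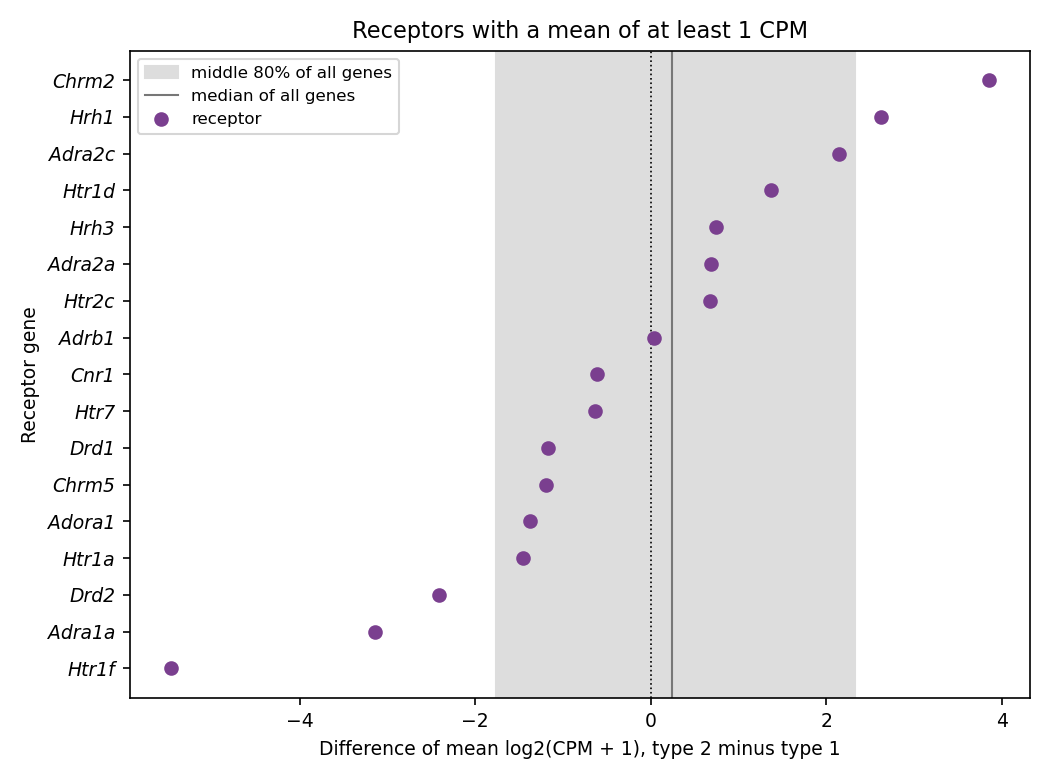
Difference in mean log2(CPM + 1), type 2 minus type 1, for each of the 17 receptors with a mean of at least 1 CPM (points), with the 10th to 90th percentiles of all 11923 genes as a grey band (-1.76 to 2.32) and their median of 0.24 as a line. Chrm2 and Hrh1 lie right of the band, and Htr1f, Adra1a and Drd2 lie left of it.

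The serotonin family held the receptor with the widest gap. At least 1 of its members was detected in 3 of 5 type 2 and 5 of 5 type 1 neurons, with 3 detections against 8. Htr1f encodes the 5-HT1F receptor, a Gi/o-coupled receptor that is the target of lasmiditan in migraine, and lies on chr16:64924729-65105854 on the minus strand (ENSMUSG00000050783; whole gene in GENCODE M21 on GRCm38, as for the receptors below). Its level was 0, 0.0351, 0, 0.0481 and 0 CPM in type 2 neurons 6-2, 9-2, 9-4, 10-1 and 10-3, against 25.7, 399, 13, 10.3 and 108 CPM in type 1 neurons 1-1, 1-2, 4-3, 8-2 and 9-1. Every type 1 neuron was above every type 2 neuron, although type 1 levels spread widely and 8-2 sat at the detection limit. The means were 0.0166 ± 0.0232 CPM in type 2 neurons against 111 ± 166 CPM in type 1 neurons, a difference of -5.47. Detection in 0 of 5 type 2 and 5 of 5 type 1 neurons (exact 95% intervals 0% to 52.2% and 47.8% to 100%) was a pattern held by 14 of the 11923 genes, or 0.117%.

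Summed over the neurons of a type, Htr1f had 3 counts in type 2 and 9862 in type 1. These correspond to 0.02 CPM (exact Poisson 95% interval 0.00413 to 0.0585) in type 2 and 88.2 CPM (86.4 to 89.9) in type 1, a ratio of 0.000227 whose counting interval is 0.0000468 to 0.000663. The difference had the same sign in libraries over 20000000 counts (-5.10), in the 1 type 2 and 3 type 1 libraries under it (-5.73), and among the 3 neurons whose names begin with 9 (-6.74). Per kilobase of exon, Htr1f averaged 0.00645 CPM in type 2 neurons and 43.1 CPM in type 1 neurons. That type 1 mean, the highest of any receptor in either type, was 15.2 CPM per kilobase without neuron 1-2.

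The other serotonin receptors were seen in few cells. Htr2c, on the X chromosome (X:146962513-147197277), encodes the Gq-coupled 5-HT2C receptor through which serotonin reduces food intake. Its level was 0, 16.1, 33.1, 0 and 0.0276 CPM in the type 2 neurons, in the order above, against 32.7, 0, 0.612, 0.0239 and 0.0637 CPM in the type 1 neurons. The type 2 neurons 9-2 and 9-4 and the type 1 neuron 1-1 passed the detection level, the ranges overlapped, and the difference of 0.67 turned to -0.14 without 9-4. Without 6-2, 9-2 and 9-4, the type 2 neurons in which 7 or more of 14 microglial markers were detected, it was -1.16. Htr1d, a Gi/o-coupled receptor, was detected in 1 neuron, type 2 neuron 10-3, at 101 CPM. Htr1a, the Gi/o-coupled receptor that acts as the autoreceptor of serotonin neurons, reached 241 CPM in type 1 neuron 8-2, where Htr7, a Gs-coupled receptor, stood at 15.8 CPM. Htr5a stayed at or under 3.35 CPM and Htr4 at or under 0.0239 CPM, and Htr1b, Htr2a, Htr5b and Htr6 had 0 counts in all 10 libraries. A count of 0 in a library allows up to 3 counts, as far as sequencing sets the limit. That is 0.0717 CPM at the greatest depth and 0.306 CPM at the least. Loss of transcripts before sequencing was not tested. Of the 8 general neuronal markers, 6 were detected in all 10 neurons. Among these, Snap25 ran from 2319 to 3123 CPM in type 2 and from 1546 to 2885 CPM in type 1 neurons. Syt1, which was not among the 6, ran from 3.8 to 182 CPM in type 2 and from 0 to 141 CPM in type 1 neurons.

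Chrm2 gave all 5 muscarinic detections in type 2 neurons and 2 of the 3 in type 1 neurons. Chrm2 encodes the M2 receptor, the Gi/o-coupled receptor that slows the heart and inhibits transmitter release in the brain, and lies on chr6:36388084-36528414 on the plus strand (ENSMUSG00000045613). Its level was 278, 380, 25.7, 36 and 181 CPM in the type 2 neurons, against 119, 0, 1.02, 0.215 and 104 CPM in the type 1 neurons. All 5 type 2 neurons passed the detection level, while type 1 split into 2 neurons above 100 CPM and 3 at or near 0, so the ranges overlapped. The means were 180 ± 153 CPM in type 2 neurons against 44.8 ± 61 CPM in type 1 neurons, a difference of 3.85. Detection in 5 type 2 and at most 2 type 1 neurons was found for 2.3% of all genes. The summed levels were 154 CPM (exact Poisson 95% interval 152 to 156) in type 2 and 45.2 CPM (43.9 to 46.4) in type 1.

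The Chrm2 difference was 3.01 in libraries over 20000000 counts, 5.48 in those under it, and -0.05 among the neurons whose names begin with 9, which are 9-2 and 9-4 of type 2 and 9-1 of type 1. Without the type 2 neurons 6-2, 9-2 and 9-4, in which 7 or more microglial markers were detected, it was 3.37. Chrm2 shares 142 exon bases with 9330158H04Rik on the opposite strand, and the strand option of the counting is not known, so its values are uncertain to that extent. That antisense gene stood at 28, 49.4, 0.127, 17.9 and 60.4 CPM in the type 2 neurons and at 2.67, 0, 29.2, 0.167 and 8.67 CPM in the type 1 neurons. In 9-4 and in 1-1 Chrm2 was at 25.7 and 119 CPM with the antisense gene at 0.127 and 2.67 CPM, and in 4-3 the antisense gene was the higher of the pair. Chrm5, a Gq-coupled muscarinic receptor known from midbrain dopamine neurons, was detected in type 1 neuron 1-1 alone, at 61.6 CPM. Chrm1 stayed at or under 0.0828 CPM, Chrm3 at or under 3.3 CPM and Chrm4 at or under 2.69 CPM, so they were not detected in any neuron.

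**Figure D3:**
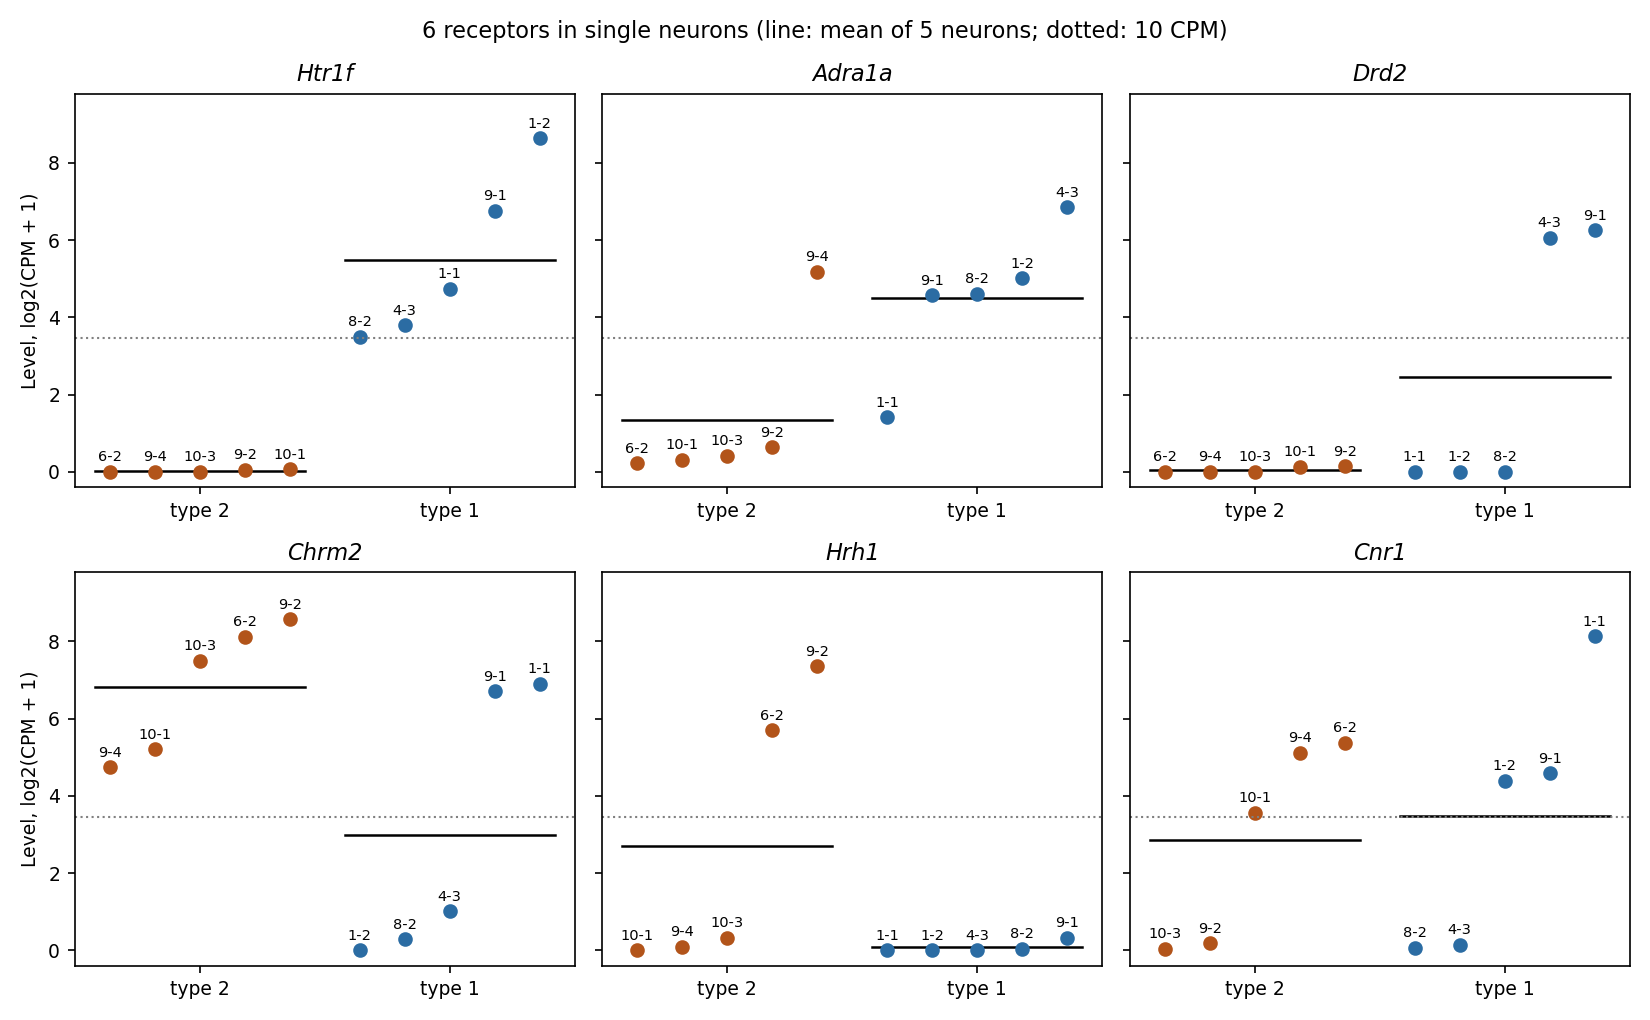
Level of 6 receptors in each neuron, as log2(CPM + 1), with type 2 neurons left of type 1 neurons in each panel, a short line at the mean of 5 neurons and a dotted line at 10 CPM. For Htr1f the type 2 points lie at or near 0 and the type 1 points run from 10.3 to 399 CPM, whereas Adra1a, Drd2, Chrm2, Hrh1 and Cnr1 have overlapping points.

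Adrenergic receptors were detected in 3 of 5 type 2 and 4 of 5 type 1 neurons, with 5 detections in type 2 (1 of Adra1a, 2 of Adra2a and 2 of Adra2c) and 6 in type 1 (4 of Adra1a, 1 of Adra2a and 1 of Adrb1). Adra1a encodes the alpha-1A receptor, a Gq-coupled excitatory receptor for noradrenaline, on chr14:66635251-66771168 on the plus strand (ENSMUSG00000045875). Its level was 0.164, 0.561, 35.3, 0.24 and 0.331 CPM in the type 2 neurons, against 1.67, 31.3, 114, 23.5 and 22.7 CPM in the type 1 neurons. Neuron 9-4 was the one type 2 cell within the type 1 range, and 1-1 was the one type 1 cell under the detection level. The means were 7.31 ± 15.6 CPM in type 2 neurons against 38.7 ± 43.7 CPM in type 1 neurons, a difference of -3.14, and it was -4.10 without 9-4. The difference was -2.96 and -4.21 in the deeper and shallower libraries, and -1.66 among the neurons whose names begin with 9. Detection in 1 of 5 type 2 neurons had an exact 95% interval of 0.505% to 71.6%, and detection in 4 of 5 type 1 neurons one of 28.4% to 99.5%.

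The alpha-2 receptors, Gi/o-coupled inhibitory receptors for noradrenaline and the targets of clonidine, were detected in fewer cells. Adra2c stood at 0.082, 18.6, 0, 80.6 and 0.0828 CPM in the type 2 neurons, against 0, 0, 0, 0 and 0.127 CPM in the type 1 neurons (chr5:35278319-35281763). The difference of 2.14 was carried by 9-2 and 10-1, the means being 19.9 ± 34.9 CPM in type 2 neurons against 0.0255 ± 0.057 CPM in type 1 neurons, and it was 1.61 without 9-2 and 1.10 without 10-1. Adra2a stood at 0, 17.5, 26.7, 0 and 0.0276 CPM in the type 2 neurons, against 0, 0, 0, 47.7 and 0 CPM in the type 1 neurons (chr19:54044151-54048982). Its ranges overlapped and its difference was 0.69, which was -0.06 without 9-4 and -1.10 without the 3 type 2 neurons in which 7 or more microglial markers were detected, which include the 2 type 2 neurons with Adra2a. Adrb1, the Gs-coupled beta-1 receptor, was detected in type 1 neuron 9-1 at 15.4 CPM and stood at 8.45 CPM in type 2 neuron 9-2, under the detection level. Adra1b stayed at or under 0.884 CPM, and Adra1d and Adra2b had 0 counts throughout.

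At least 1 histamine receptor was detected in 5 of 5 type 2 and 2 of 5 type 1 neurons. Hrh1 encodes the Gq-coupled H1 receptor, the target of sedating antihistamines, on chr6:114397936-114483296. Its level was 51.2, 163, 0.0636, 0 and 0.249 CPM in the type 2 neurons, against 0, 0, 0, 0.0239 and 0.255 CPM in the type 1 neurons. It was high in 6-2 and 9-2 and at or near 0 in the other 8, with means of 42.8 ± 70.5 CPM in type 2 neurons against 0.0558 ± 0.112 CPM in type 1 neurons and a difference of 2.62. Microglial markers were detected in those cells, 13 of 14 in 6-2 (summed level 1889 CPM) and 7 of 14 in 9-2 (524 CPM), but also in 9-4 (13 of 14, 1662 CPM), where Hrh1 was at 0.0636 CPM. Without 6-2, 9-2 and 9-4 the difference was 0.09, and the part of microglial RNA in it was not tested. Leaving out 6-2 or 9-2 alone gave 1.87 and 1.46.

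Hrh3 encodes the Gi/o-coupled H3 receptor, a presynaptic receptor that limits release of histamine and other transmitters, on chr2:180099465-180104488. Its level was 0, 0.14, 25.4, 14.5 and 73.6 CPM in the type 2 neurons, against 86.8, 0, 0, 29.5 and 0 CPM in the type 1 neurons. The type 2 neurons in which Hrh3 was detected were the 3 in which Hrh1 was not, so that 1 of the pair was detected in each. The means of 22.7 ± 30.4 CPM in type 2 neurons against 23.3 ± 37.7 CPM in type 1 neurons were far closer than their spreads, and the difference of 0.74 turned to -0.06 without 10-3 and was 2.81 without 6-2, 9-2 and 9-4. Hrh2 stayed at or under 0.0478 CPM.

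Dopamine receptors were detected in 0 of 5 type 2 and 2 of 5 type 1 neurons. Drd2 encodes the Gi/o-coupled D2 receptor, the target of antipsychotic and of several antiemetic drugs, on chr9:49340627-49408177. Its level was 0, 0.105, 0, 0.0961 and 0 CPM in the type 2 neurons, against 0, 0, 65.6, 0 and 75.5 CPM in the type 1 neurons. The level was high in 4-3 and 9-1 and 0 in the other 3 type 1 neurons, which lay at or below the type 2 neurons. The means were 0.0403 ± 0.0552 CPM in type 2 neurons against 28.2 ± 38.8 CPM in type 1 neurons, a difference of -2.41, which was -1.51 without 4-3 and -1.46 without 9-1. Drd1, the Gs-coupled D1 receptor, was detected in 4-3 at 12.2 CPM, a neuron that also had Drd2, and stood at 3.39 CPM in type 1 neuron 1-2. Drd3, Drd4 and Drd5 had 0 counts in all libraries.

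Cnr1 encodes the CB1 receptor, the Gi/o-coupled presynaptic receptor for endocannabinoids, on chr4:33924593-33948831, and was detected in equal numbers of neurons of each type. Its level was 40.7, 0.14, 33.6, 10.8 and 0.0276 CPM in the type 2 neurons, against 280, 20.1, 0.102, 0.0478 and 23.1 CPM in the type 1 neurons. It was detected in 3 of 5 type 2 and 3 of 5 type 1 neurons, and the highest value, in 1-1, lifted the type 1 mean. The means were 17 ± 19 CPM in type 2 neurons against 64.6 ± 121 CPM in type 1 neurons, a difference of -0.61. The difference turned to 0.56 without 1-1, 0.06 without 9-2, 0.09 without 10-3 and 1.16 in libraries under 20000000 counts. It stayed negative in 17 of 21 alternative settings or sets of neurons. Among these were -1.67 without 6-2, 9-2 and 9-4 and -1.94 among the neurons whose names begin with 9. Of the adenosine receptors, Adora1, the Gi/o-coupled A1 receptor through which adenosine quiets neurons, was detected in type 1 neuron 8-2 alone, at 56.3 CPM, and Adora2a and Adora2b had 0 counts throughout.

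Some receptors were detected together in the same cells. Since Chrm2 was detected in every type 2 and Htr1f in every type 1 neuron, a pair that includes one of them follows within that type from the other receptor alone. Adra1a and Htr1f, for example, were detected together in the 4 type 1 neurons with Adra1a (1-2, 4-3, 8-2 and 9-1). Of the other pairs, Hrh3 and Cnr1 were detected together in 9-4 and 10-1 of type 2 and 1-1 of type 1, and Adra1a and Cnr1 in 9-4 of type 2 and 1-2 and 9-1 of type 1. Chrm2 and Cnr1 were detected together in 2 type 1 neurons, 1-1 and 9-1. These are counts over 10 cells and were not tested.

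Grouped by their main G protein, Gi/o-coupled receptors were detected in every neuron of each type, with 16 detections in type 2 and 17 in type 1 neurons among 17 genes. Receptors coupled to Gq were detected in 3 type 2 and 5 type 1 neurons, with 5 and 6 detections among 9 genes, through Adra1a, Htr2c and Hrh1 in type 2 and Adra1a, Htr2c and Chrm5 in type 1. Receptors coupled to Gs were detected in 0 type 2 and 3 type 1 neurons, each time a different gene near the detection level (Drd1 in 4-3, Htr7 in 8-2 and Adrb1 in 9-1, at 12.2 to 15.8 CPM). The summed level of Gi/o-coupled receptors was 270 ± 134 CPM in type 2 neurons against 342 ± 162 CPM in type 1 neurons, that of Gq-coupled receptors 60.8 ± 74.5 CPM in type 2 neurons against 58.1 ± 43.8 CPM in type 1 neurons, and that of Gs-coupled receptors 2.04 ± 3.74 CPM in type 2 neurons against 9.4 ± 7.27 CPM in type 1 neurons (SD between cells, n = 5 each). The means of the types differed by less than the larger SD for Gi/o and Gq, and by about that SD for Gs.

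**Figure D4:**
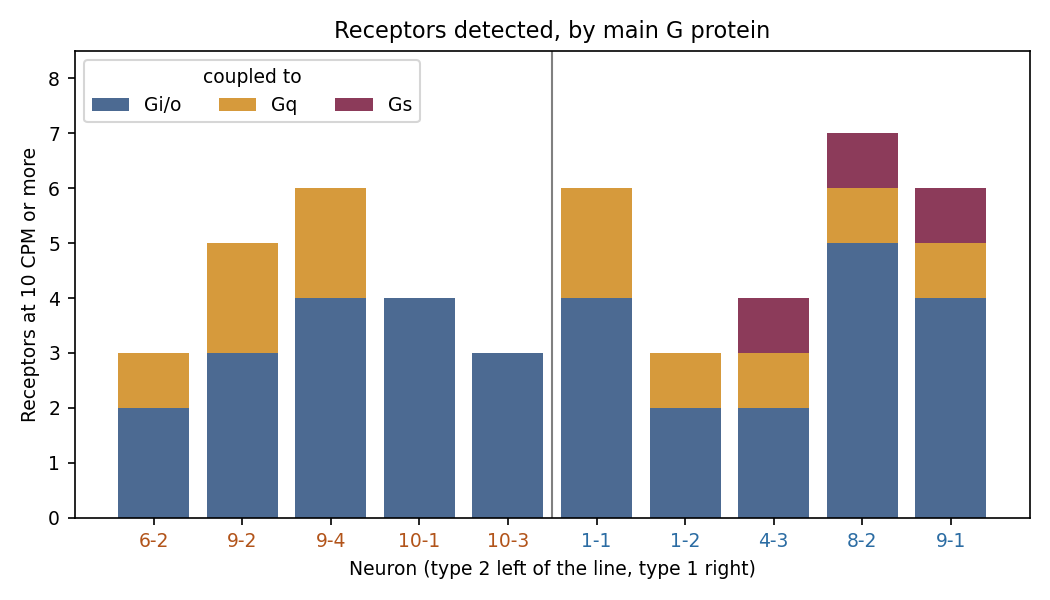
Number of detected receptors in each neuron, stacked by the G protein they mainly couple to (Gi/o, Gq or Gs), with type 2 neurons on the left and type 1 neurons on the right. Gi/o-coupled receptors form the larger part of every bar except that of type 1 neuron 4-3, and Gs-coupled receptors appear in 4-3, 8-2 and 9-1.

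Levels of different genes were set side by side per kilobase of exon, with all annotated exons of a gene counted in its length. This takes reads to be spread over the whole transcript, and the amplification is not given, so the order of genes is uncertain to that extent. By this measure Chrm2 led in type 2 at a mean of 29.7 CPM per kilobase. Hrh1 followed at 9.63, Hrh3 at 7.22, Htr1d at 6.31, Adra2c at 5.77 and Cnr1 at 2.65. In type 1 Htr1f led at 43.1 CPM per kilobase, followed by Drd2 at 11.1, Htr1a at 10.7, Cnr1 at 10, Chrm5 at 7.7, Chrm2 at 7.4, Hrh3 at 7.39 and Adra1a at 4.44. Several of these means rest on 1 cell (Htr1d, Htr1a, Chrm5) or 2 cells (Hrh1, Adra2c, Drd2), and neighbouring means in either order, the first places included, differed by less than the larger SD between cells.

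The receptors were detected in fewer cells each than genes in general. Of the 17 detected, 7 (41.2%) were detected in exactly 1 neuron, against 15.5% of the 11782 genes detected in at least 1. In 5 or more neurons 5 receptors (29.4%) were detected, against 55.7% of those genes. Chrm2, in 7 neurons, was the most widespread, and no receptor was detected in all 10. Most detected receptor values lay below the median of the detected genes, as given above, and how far the level of a gene sets the number of neurons in which it is detected was not tested.

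**Figure D5:**
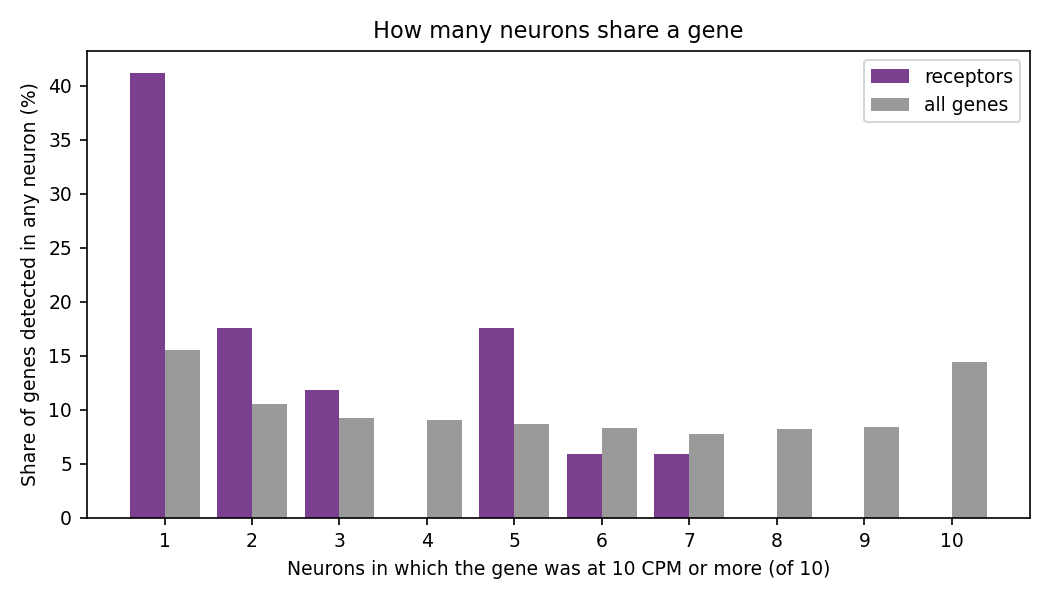
Percent of the 17 detected receptors and of the 11782 genes detected in at least 1 neuron, by the number of neurons (of 10) in which each was detected. Receptors are most frequent at 1 neuron (41.2%, against 15.5% of genes) and none is found in more than 7.

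The genes that make, remove and relay these transmitters were compared in the same way. Of 18 genes of monoamine and acetylcholine synthesis, vesicle loading and uptake, 11 had a mean of at least 1 CPM, 10 higher and 1 lower in type 2, where 56.2% of all genes were higher. Their median difference was 1.15, and 2 of the 11 were at 2 or more, as were 13.5% of all genes. Ddc, the decarboxylase that makes dopamine and serotonin, stood at 56.8, 186, 567, 325 and 783 CPM in the type 2 neurons, against 26.3, 152, 0.102, 1.03 and 116 CPM in the type 1 neurons, a difference of 4.09. It was detected in 5 type 2 and 3 type 1 neurons, and the ranges overlapped. Gch1, which makes the cofactor of the monoamine hydroxylases, averaged 42 ± 52.7 CPM in type 2 neurons against 27.7 ± 61.7 CPM in type 1 neurons, a difference of 2.00. Of the 3 markers of cholinergic neurons, Slc5a7, the choline transporter, stood at 31.7, 11.2, 54.4, 0 and 0.138 CPM in the type 2 neurons, against 0, 0, 22, 10.7 and 0.0319 CPM in the type 1 neurons, a difference of 1.30. Slc18a3, which loads acetylcholine into vesicles, was detected in 9-4 alone (11.9 CPM), and Chat, which makes acetylcholine, was detected in no neuron and reached 8.81 CPM in 9-4. All 5 measured genes of transmitter breakdown had a higher mean in type 2, with a median difference of 1.73 against 0.24 over all genes, and 2 of the 5 were at 2 or more.

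Maob, a mitochondrial monoamine oxidase, stood at 26.5, 128, 240, 328 and 198 CPM in the type 2 neurons, against 61.7, 0, 2.25, 0.574 and 0.478 CPM in the type 1 neurons, a difference of 5.36. Type 1 neuron 1-1 was the one of its type above the detection level, and it lay above type 2 neuron 6-2. Hnmt, which methylates histamine, averaged 148 ± 68.8 CPM in type 2 neurons against 82.8 ± 100 CPM in type 1 neurons, a difference of 2.85, and was detected in 5 type 2 and 3 type 1 neurons. Ddc and Maob were thus detected in every type 2 neuron. Th, the enzyme that starts catecholamine synthesis, passed the detection level in type 1 neuron 1-2 alone (261 CPM). Dbh, from the same list as Th, passed it in type 2 neuron 9-4 (546 CPM) and type 1 neuron 9-1 (117 CPM). Of the 18 genes of that list, 3 to 6 were detected per type 2 neuron and 1 to 3 per type 1 neuron.

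Of the 10 genes of adenosine formation, uptake and breakdown that were matched, 7 were measured, 5 higher and 2 lower in type 2, with a median difference of 0.94. Adk, the kinase that clears adenosine, averaged 107 ± 48.4 CPM in type 2 neurons against 102 ± 112 CPM in type 1 neurons and was detected in 5 type 2 and 3 type 1 neurons (difference 2.18), and the uptake transporter Slc29a1 averaged 15.9 ± 21.8 CPM in type 2 neurons against 74.2 ± 79.7 CPM in type 1 neurons (difference -1.93). All 9 genes of the endocannabinoid list were measured, 5 higher and 4 lower in type 2, with a median difference of 0.70, 2 at 2 or more and 1 at -2 or less. Faah, which breaks down anandamide, passed the detection level in 4 type 2 neurons and in 1 of type 1, and averaged 86.8 ± 96.6 CPM in type 2 neurons against 35.1 ± 78.3 CPM in type 1 neurons (difference 3.63). Cnrip1, which encodes a protein that binds the CB1 receptor tail, averaged 131 ± 84.4 CPM in type 2 neurons against 59.4 ± 67 CPM in type 1 neurons (difference 2.21).

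Receptor kinases and arrestins switch off active receptors. Of 8 measured, 2 were higher and 6 lower in type 2, with a median difference of -0.19 and none at 2 or -2. Grk6 averaged 57.4 ± 33.5 CPM in type 2 neurons against 191 ± 117 CPM in type 1 neurons (difference -1.97), and Gprasp2, a receptor sorting protein gene, 581 ± 237 CPM in type 2 neurons against 944 ± 370 CPM in type 1 neurons (difference -0.69). Regulators of G protein signalling speed the return of G proteins to rest, and their list also held the partner genes Gnb5 and Rgs7bp. Of this list 13 were measured, 8 higher and 5 lower in type 2, with a median difference of 1.71. A difference of 2 or more was found for 6 of the 13, Gnb5 (2.34) and Rgs7bp (2.70) among them, against 13.5% of all genes. A difference of -2 or less was found for 1, against 7.78%.

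That one was Rgs4, a regulator that acts on Gi/o and Gq signals. Rgs4 stood at 0.492, 49.7, 59.9, 47.8 and 593 CPM in the type 2 neurons, against 354, 561, 625, 1917 and 1908 CPM in the type 1 neurons, a difference of -4.34. Neuron 10-3 was the one type 2 cell within the type 1 range. Rgs7bp, which anchors regulators of its family at the membrane, averaged 93.7 ± 54.5 CPM in type 2 neurons against 68.5 ± 123 CPM in type 1 neurons and was detected in 5 type 2 and 2 type 1 neurons (difference 2.70). Of 7 further receptors of the same ligand families and near relatives (Adrb3, Htr2b, Hrh4, Adora3, Cnr2, Taar1 and Gpr55), Htr2b alone was detected, at 17.7 CPM in type 2 neuron 9-2, and 3 had 0 counts throughout.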

How the data were processed

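The submitters' processing notes list HTSeq 0.6.1p1, cutadapt 1.13, DESeq2 and STAR, the last pair with no version, and the build mm10. Not given in the sources used here are the order of steps, annotation release, strand option and amplification. The authors deposited whole-number counts of reads per Ensembl gene for each neuron, with columns for gene and counts per the file headers, and no normalization. Symbols were matched by identifier for 24942 of 25006 genes and GENCODE M21 (GRCm38) coordinates for 24991.

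From these, CPM was computed as counts divided by the library's total gene counts, scaled to 1000000, and levels as log2(CPM + 1). Each type has no named animals and was treated as 1 sample, so no model was fitted and no p-value or standard error was computed. Values in every neuron are given for receptors detected in at least 2 neurons, the neuron and level for those detected in 1, and the highest level for the rest. From each other list, the members detected in 3 or more neurons of either type were ranked by absolute difference and the top 2 are named. The receptors and lists were chosen with earlier results of these data known. Genes named outside this rule (Lepr, Gcg, Gal, Th, Dbh, Slc5a7, Slc18a3, Chat, P2ry12, Cx3cr1, Aif1, Aldoc and further markers) were chosen after their values were seen. A count of 0 allows 3 counts. Intervals are at 95%, the binomial ones for neurons taken as independent draws and the Poisson ones for the counting of reads only. All 45 pairs of libraries differed by more than sampling noise (chi-square per degree of freedom at least 559). The difference between the types was tested on simulated counts of genes at higher levels, which did not cover detection or levels that are mostly 0. Calculations were made with Python 3.11.15, numpy 2.4.6, pandas 2.3.3, scipy 1.17.1 and matplotlib 3.10.9. TMM (edgeR 4.0.16) and DESeq2 1.42.0 in R 4.3.3 gave scaling alternatives. Promoter sequences are from RefSeq (GRCm38.p6), which has an entry for 29 of the 35 receptors in the table used.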

Additional observations from a re-analysis of the deposited data

Results flagged for a closer look

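Each group examined was 1 receptor in 1 type, on the log2(CPM + 1) scale, or the number of detected receptors per neuron in 1 type. In 9 of the 25 groups of 5 neurons, 1 neuron stood far from the other 4 by Dixon's gap criterion. For normally distributed values chance meets it in about 1 group in 20, a rate that cannot be applied to levels that are mostly 0, so the 9 are a list of receptors seen in 1 neuron of a type and not an excess over chance. In type 2 neurons these were Adra1a in 9-4 (35.3 CPM) and Htr1d in 10-3 (101 CPM). In type 1 neurons, 8-2 stood apart for Htr1a (241 CPM), Adora1 (56.3 CPM), Adra2a (47.7 CPM) and Htr7 (15.8 CPM). Neuron 1-1 stood apart for Chrm5 (61.6 CPM) and Htr2c (32.7 CPM), and 9-1 for Adrb1 (15.4 CPM). In each of the 9 the neuron that stood apart was the only one of its type in which the receptor was detected.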

How the results depend on the processing

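Htr1f kept its negative difference in all 21 alternatives, from -8.56 (pseudocount 0.1) to -2.59 (pseudocount 10). Chrm2 kept its sign except among neurons whose names begin with 9 (-0.05). With the median over neurons, Hrh1 (0.32), Adra2c (0.11) and Drd2 (0.00) no longer reached 2 or -2, and Hrh3 did (3.95). The median difference of the measured receptors ranged from -1.16 to 0.11, and TMM or DESeq2 scaling moved the median of all genes to 0.39 or 0.37. With 1 count or more as detection, type 2 neurons held 10.6 receptors and type 1 neurons 9.8, so the order of the types turned, against 4.2 and 5.2. Receptors at 2 or more numbered 1 with a pseudocount of 10 and 1 to 3 when each neuron was left out. Receptors at -2 or less numbered 1 with a pseudocount of 10, 5 with a pseudocount of 0.1, 5 in libraries over 20000000 counts, and 7 with a difference of at least 1 counted. The set under 20000000 counts was chosen after seeing the data. The causes were not tested. No paired analysis was possible because the result comes from no test and the neuron numbers are not explained. Depth limits levels under 0.306 CPM.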
